A study of Mus musculus with 6 samples.

Results

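The S100 genes other than S100a8 and S100a9, which together encode calprotectin, were followed in the esophageal epithelium of mice in which the transcription factor gene Klf4 was targeted. The 10 genes S100a1, S100a3, S100a4, S100a6, S100a10, S100a11, S100a13, S100a14, S100a16 and S100b were taken by name, each through the probe set that names that gene alone and has the highest mean over the 6 arrays, out of 19938 genes measured in this way. All 10 were found. The 3 mutant mice carried the ED-L2-Cre transgene and Klf4loxp/loxp, that is, loxP sites on both copies of Klf4, and the 3 controls were Klf4loxp/loxp littermates of the same sex without Cre. The ED-L2 promoter drives Cre in stratified squamous epithelia, the esophageal lining among them. All animals were 3 months old and of mixed genetic background, each genotype had 1 male (replicate 1) and 2 females (replicates 2 and 3), and each array was 1 animal.

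S100 proteins are small calcium-binding proteins with paired EF-hand motifs, and most of them work as dimers that bind a partner protein when calcium rises. They have no enzyme activity of their own; they act through annexins, cytoskeletal proteins, channels and, outside the cell, receptors such as RAGE. In stratified squamous epithelium several of them are abundant, and most of their genes lie in the epidermal differentiation complex, beside the genes of the cornified envelope.

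Values were deposited as log2 signals, so a difference of 1 is a change of a factor of 2. Array medians lay between 5.01 and 5.13, and correlations between arrays across genes, which are not independent replicates, lay between 0.974 and 0.992. Signals of different probe sets depend on the probes as well as on the transcript, so the levels of different genes are not ranked here. A gene was called dim where its mean over the 6 arrays was under 4.72, the 40th percentile of all genes. The targeted gene Klf4 read 10.28, 10.50 and 10.28 on the mutant arrays, against 9.75, 10.15 and 10.06 on the control arrays, a difference of 0.37 ± 0.13 (SE; limma adjusted p = 0.314). The signal of Klf4 was thus not lower on the mutant arrays. Where its probes lie relative to the removed part of the gene is not known here, so this is no check of the labels, and every direction below rests on them. The keratin genes of the tissue read brightly in both groups, with Krt4 at 13.56, 13.65 and 13.70 on the mutant arrays and 13.74, 13.57 and 13.73 on the control arrays, and Krt13, Krt5 and Krt14 had group means between 11.27 and 13.81. Of 12 epithelial markers, 11 were above the dim limit, the exception being Crnn. The p-values set each difference against the spread between these animals, with information on that spread shared over all genes.

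None of the 10 S100 genes passed the comparison of mutant against control (limma, Benjamini-Hochberg adjusted p under 0.05 over all 19938 genes), where 1.04% of all genes passed. The smallest adjusted p among them was 0.214. At an unadjusted p under 0.05 there were 4 of the 10, namely S100a10, S100a11, S100a14 and S100a16, beside 12.4% of all genes. The mutant and control arrays did not overlap for 2 of the 10, S100a10 and S100a11, beside 18.1% of all genes. In all, 6 of the 10 were lower and 4 higher on the mutant arrays, with a median difference of -0.10 on the log2 scale, beside a median of 0.022 over all genes. The 95% intervals of the 10 differences reached down to -0.87 and up to 0.77, so larger differences of these genes lie outside the intervals, while a p that misses the threshold does not show that the groups were alike.

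S100a10 encodes p11, which joins annexin A2 at the plasma membrane and is unusual among S100 proteins in holding its active shape without calcium. It read 10.81, 10.72 and 10.81 on the mutant arrays, against 11.03, 11.05 and 11.22 on the control arrays. Every mutant array was below every control array. The difference was -0.32 ± 0.097 (SE), or 0.801-fold, with a 95% interval of -0.55 to -0.095 and an adjusted p of 0.214 in limma. It lay between -0.35 and -0.26 when each array in turn was left out. The gene of its main partner, Anxa2, read 10.80, 10.78 and 10.77 on the mutant arrays, against 10.82, 10.81 and 10.84 on the control arrays, with a difference of -0.040 that did not pass (adjusted p = 0.907). Ahnak, encoding a large scaffold protein that binds the complex of p11 and annexin A2, differed by -0.27 (adjusted p = 0.523).

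S100a11 encodes calgizzarin, a partner of annexin A1 that in human keratinocytes is a component of the cornified envelope. It read 11.83, 11.87 and 11.69 on the mutant arrays, against 11.54, 11.57 and 11.51 on the control arrays. All mutant arrays were above all control arrays, the opposite order to S100a10. The difference was 0.26 ± 0.094 (SE), or 1.20-fold, with an interval of 0.043 to 0.48 and an adjusted p of 0.302 in limma. A second probe set of S100a11 gave nearly the same difference, 0.24 ± 0.098 (adjusted p = 0.374 in a limma fit over all probe sets naming 1 gene), from 11.38, 11.43 and 11.20 on the mutant arrays and 11.10, 11.11 and 11.06 on the control arrays. Probe positions are not given, so whether either probe set also reads a near-identical copy of the gene is not known here. The identifier of the second probe set falls among those of chromosome 3 genes, near that of S100a10. That of the brighter probe set, used here, falls among those of chromosome 18 genes, between Mbp and Cd14. The S100a11 values carry that uncertainty. Anxa1, encoding annexin A1, was higher on every mutant array, at 12.31, 12.25 and 12.47, against 11.61, 11.30 and 11.79 on the control arrays. Its difference of 0.77 ± 0.14 (SE) did not pass (adjusted p = 0.0609).

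S100a11 and S100a10 are near neighbours, with 1 gene between them in the annotation of assembly GRCm38.p6. Within an array, the log2 ratio of the S100a11 signal over the S100a10 signal was 1.02, 1.15 and 0.89 on the mutant arrays, against 0.51, 0.52 and 0.29 on the control arrays. The ratio was chosen after the values were seen and is given without a test. It says that these signals differed unequally between the groups, not which of them stayed level, and it shares the uncertainty about the S100a11 probe set.

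**Figure D1:**
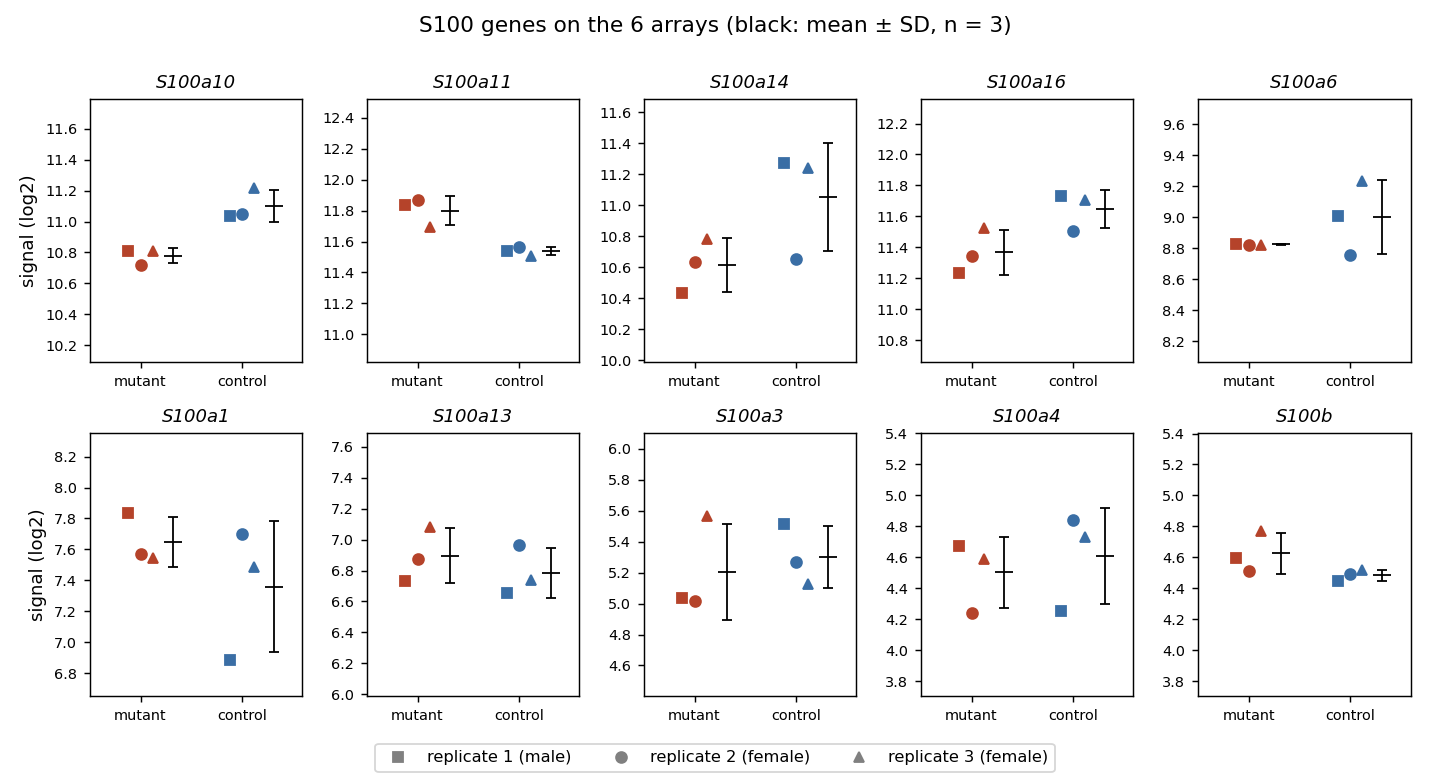
Signal (log2, vertical axis, each panel spanning the same range) of the 10 S100 genes on the 3 mutant arrays (red) and the 3 control arrays (blue), with symbols for the replicate number and black marks for the mean ± SD (n = 3). The groups are apart for S100a10, lower in mutant, and S100a11, higher in mutant, and overlap for the other 8 genes.

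S100a14 and S100a16 encode epithelial S100 proteins that bind calcium weakly or through only one of their EF-hands. S100a14 read 10.43, 10.63 and 10.78 on the mutant arrays, against 11.27, 10.65 and 11.24 on the control arrays. Control replicates 1 and 3 were above all mutant arrays, while control replicate 2 lay among them. The difference was -0.44 ± 0.18 (SE), or 0.737-fold, with an interval of -0.87 to -0.010 and an adjusted p of 0.388 in limma. It was -0.64 without control replicate 2 (adjusted p = 0.124) and its range was -0.52 to -0.33 when any of the other arrays was left out.

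S100a16 read 11.23, 11.35 and 11.52 on the mutant arrays, against 11.73, 11.50 and 11.70 on the control arrays. Mutant replicate 3 lay just above control replicate 2, and the other arrays were apart. The difference was -0.28 ± 0.12 (SE), or 0.825-fold, with an interval of -0.55 to -0.0084 (limma adjusted p = 0.385). Both genes are next to each other on chromosome 3, and they put the 6 arrays in the same order, from mutant replicate 1 as the lowest to control replicate 1 as the highest. Of the 45 pairs among the 10 genes, this was the only 1 with the same order on all 6 arrays, an observation made after the values were seen. S100a7a, encoding a psoriasin-related S100 protein and lying further along the same cluster, read 8.90, 8.91 and 10.06 on the mutant arrays, against 10.26, 9.70 and 10.44 on the control arrays (difference -0.84 ± 0.33, SE; limma adjusted p = 0.356).

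S100a6 encodes calcyclin, which binds the ubiquitin ligase adaptors Cacybp and Sugt1. It read 8.83, 8.82 and 8.82 on the mutant arrays, against 9.01, 8.76 and 9.23 on the control arrays. The mutant arrays spanned 0.0073, while the control arrays spanned 0.47 and lay on both sides of them. The difference was -0.18 ± 0.13 (SE; interval -0.48 to 0.13, limma adjusted p = 0.676), and it was -0.059 without control replicate 3 and -0.30 without control replicate 2. Cacybp and Sugt1 differed by 0.11 and -0.083 and did not pass (adjusted p = 0.846 and 0.825).

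S100a1 encodes a protein best known from heart and skeletal muscle, where it acts on the ryanodine receptor and the calcium pump of the sarcoplasmic reticulum. It read 7.83, 7.57 and 7.54 on the mutant arrays, against 6.89, 7.70 and 7.49 on the control arrays. The groups overlapped, and 1 array, control replicate 1, stood below the other 5. The difference was 0.29 ± 0.21 (SE; limma adjusted p = 0.665), and 0.053 without control replicate 1. The list of smooth and skeletal muscle markers averaged 8.35, 8.30 and 6.85 on the mutant arrays, against 7.37, 9.61 and 8.97 on the control arrays, so control replicate 1 was also the lowest control array in muscle markers. Mutant replicate 3 was lower still in these markers. All 14 of them were lower on average in mutant and none passed. The smallest p-values were those of the smooth muscle genes Tagln at -0.89 (limma adjusted p = 0.0717) and Cnn1 at -1.09 (adjusted p = 0.0758). Genes of skeletal muscle varied more widely within each genotype. Ckm, 1 of them, read 10.56, 10.01 and 7.0005 on the mutant arrays, against 6.79, 12.05 and 11.09 on the control arrays. Its difference of -0.79 had an SE of 1.425, so its lower average in mutant depends on single animals. The part of muscle in the S100a1 values was not tested.

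S100a13 takes part in the release of FGF1 and IL-1 alpha from cells by a route outside the secretory pathway. It read 6.73, 6.87 and 7.08 on the mutant arrays, against 6.65, 6.96 and 6.74 on the control arrays, and the groups overlapped. The difference was 0.11 ± 0.13 (SE; limma adjusted p = 0.806), with values from 0.017 (without mutant replicate 3) to 0.20 (without control replicate 2) when single arrays were left out. Of its cargo genes, Il1a read 4.48, 4.35 and 4.90 on the mutant arrays, against 6.91, 5.09 and 7.12 on the control arrays. That difference, -1.80 ± 0.49 (SE), did not pass (adjusted p = 0.168), although the groups were apart. Fgf1 was dim and its groups overlapped, at 4.22, 4.23 and 4.36 on the mutant arrays and 4.09, 5.08 and 4.73 on the control arrays (difference -0.37, adjusted p = 0.607).

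S100a3, a protein of the hair cuticle that is a substrate of the citrullinating enzyme PAD3, read 5.03, 5.02 and 5.56 on the mutant arrays, against 5.52, 5.27 and 5.12 on the control arrays. The mutant arrays included both the highest value and the lowest, and the difference of -0.097 ± 0.18 (SE) did not pass (limma adjusted p = 0.889). Padi3, encoding that enzyme, differed by 0.013 (adjusted p = 0.978).

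S100a4, also called metastasin or fibroblast-specific protein, binds non-muscle myosin, the product of Myh9, and is known from fibroblasts and cells of the immune system. It was dim, reading 4.68, 4.24 and 4.59 on the mutant arrays, against 4.25, 4.84 and 4.73 on the control arrays. Its difference was -0.11 ± 0.18 (SE; limma adjusted p = 0.881), and its sign turned without control replicate 2 or without mutant replicate 2. The fibroblast marker list, in contrast, averaged 7.37 to 7.54 on the mutant arrays and 8.01 to 8.66 on the control arrays. All 18 of its genes were lower on average in mutant, and Fn1, Col1a2, Sparc and Thy1 fell by 1.26, 1.30, 1.10 and 0.58 (limma adjusted p = 0.0246, 0.0273, 0.0312 and 0.0479). In such bulk samples, fewer cells of a type and less RNA per cell cannot be told apart, and the part of stroma in the differences of the S100 genes was not tested.

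S100b, a protein of astrocytes and Schwann cells that is used as a marker of nerve, was also dim. It read 4.59, 4.51 and 4.77 on the mutant arrays, against 4.45, 4.49 and 4.52 on the control arrays, and the groups overlapped, with mutant replicate 2 just below control replicate 3. The difference was 0.14 ± 0.10 (SE; limma adjusted p = 0.666), and 0.069 without mutant replicate 3. The nerve and Schwann cell markers averaged between 5.68 and 5.90 on the mutant arrays and between 5.77 and 5.95 on the control arrays. None of the 10 measured passed, with Pmp22 at -0.99 and Gap43 at -0.58 having the smallest p-values. The Langerhans and dendritic cell markers averaged between 5.89 and 6.43 on the mutant arrays and between 5.78 and 5.999 on the control arrays. None of the 10 passed, and the smallest p-values were those of Epcam, also a gene of epithelial cells, at 0.63 (adjusted p = 0.0547), and of Itgax at 0.34 (adjusted p = 0.569).

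**Figure D2:**
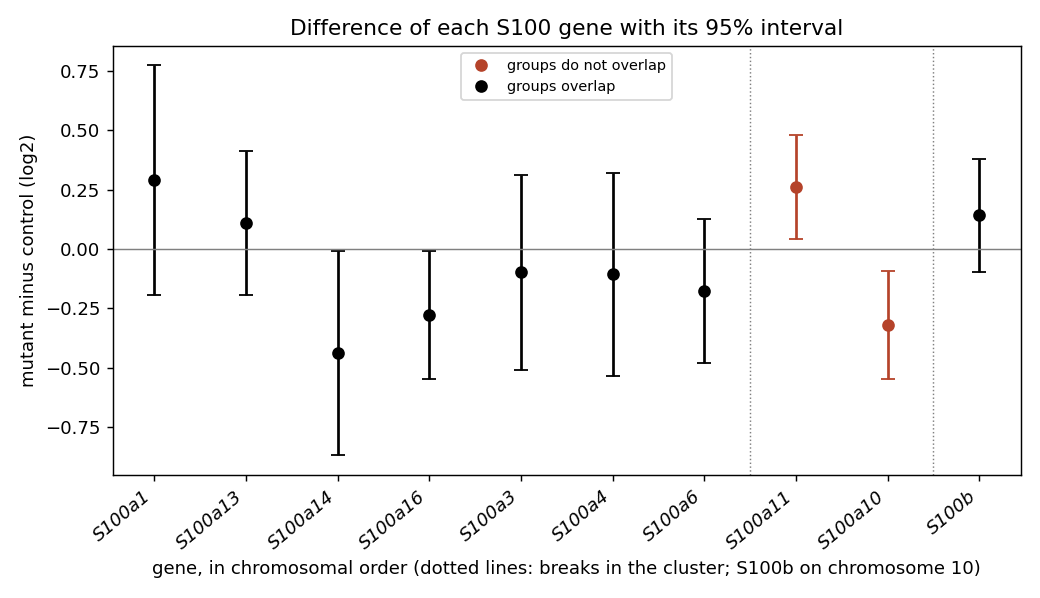
Difference of each S100 gene, mutant minus control on the log2 scale (vertical axis), with its 95% moderated interval, in chromosomal order from S100a1 to S100a10 and with S100b last. The intervals of S100a14, S100a16, S100a10 and S100a11 leave out 0, and S100a11 (0.26) and S100a10 (-0.32) lie on opposite sides of it.

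Of the 10 genes, in chromosomal order along the main cluster, S100a1 and S100a13 had positive differences, and S100a14, S100a16, S100a3, S100a4 and S100a6 negative ones. The dim genes S100a2 and S100a5, not among the 10, lie within this run. S100a2, between S100a3 and S100a4, differed by -0.038, and S100a5, between S100a4 and S100a6, by 0.074, and neither passed. After S100a6 come S100a7a, S100a8 and S100a9, and S100a11 and S100a10 follow after a run of other genes of the epidermal differentiation complex. The calprotectin genes were high on 1 mutant array, with S100a8 at 10.01, 6.08 and 5.80 on the mutant arrays, against 4.70, 4.85 and 4.79 on the control arrays. S100a9 read 9.95, 5.61 and 5.32 on the mutant arrays, against 6.94, 6.002 and 6.19 on the control arrays. Neither passed (limma adjusted p = 0.354 and 0.896). On that array, mutant replicate 1, S100a14 and S100a16 had their lowest values. Of the 10 neutrophil markers, which include S100a8 and S100a9, 9 were higher on average in mutant, with a median difference of 0.13, and none passed. Cxcr2, encoding a chemokine receptor, read 8.50, 8.10 and 7.84 on the mutant arrays, against 7.97, 7.52 and 6.64 on the control arrays (difference 0.77, limma adjusted p = 0.394). The other 7 markers of that list, Ly6g, Mpo, Elane, Camp, Ngp, Csf3r and Retnlg, were dim.

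Sequence at the start of these genes was set beside the values, since Kruppel-like factors bind GC-rich sites and CACCC boxes. RefSeq windows of 300 bases (250 before and 50 after the start, GRCm38.p6) were at hand for 8 of the 10 genes, in 12 windows; S100a10 and S100a14 had no entry. The letters CACCC on either strand were found in 9 of the 12 windows, and in 57.5% of all 32851 windows of this length. The GC box GGGCGG on either strand is in 35.7% of all windows. Among the 12 it was found only in the S100a11 window, the later S100a16 window and the last of several S100a3 windows. No match overlapped a match of the other motif in these windows. The window of S100a11 is shown because this gene was higher on every mutant array, that of S100a16 because it is the one gene with an entry of the pair with the same array order, and that of S100a1 because it is shared in part with S100a13. Capitals mark CACCC or GGGCGG and their reverse complements, and each line reads 5′ to 3′ on the strand of the gene.
S100a11, chr3:93520246-93520545, plus strand: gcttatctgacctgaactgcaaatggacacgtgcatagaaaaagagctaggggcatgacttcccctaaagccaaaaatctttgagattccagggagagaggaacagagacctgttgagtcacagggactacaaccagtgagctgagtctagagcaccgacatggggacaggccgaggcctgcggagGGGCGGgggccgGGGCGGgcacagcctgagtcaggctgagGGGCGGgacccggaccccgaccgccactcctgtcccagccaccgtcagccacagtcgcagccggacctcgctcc
S100a16, first of its starts, chr3:90537004-90537303, plus strand: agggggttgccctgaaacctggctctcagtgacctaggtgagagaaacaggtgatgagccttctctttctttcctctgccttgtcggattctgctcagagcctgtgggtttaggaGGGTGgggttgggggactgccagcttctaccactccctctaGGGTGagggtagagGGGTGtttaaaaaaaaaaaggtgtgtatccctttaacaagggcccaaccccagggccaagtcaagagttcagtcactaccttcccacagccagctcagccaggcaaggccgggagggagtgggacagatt
S100a1, chr3:90514281-90514580, minus strand: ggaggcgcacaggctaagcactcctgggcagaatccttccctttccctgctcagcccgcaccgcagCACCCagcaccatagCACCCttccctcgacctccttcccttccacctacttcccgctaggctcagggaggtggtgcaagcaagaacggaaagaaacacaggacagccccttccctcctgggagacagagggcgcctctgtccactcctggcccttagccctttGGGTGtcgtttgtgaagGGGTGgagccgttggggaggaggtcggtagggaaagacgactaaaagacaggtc

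The S100a11 window held 3 GGGCGG boxes and no CACCC, and 10.7% of all windows held 3 or more such GC boxes. The S100a16 window shown held 3 CACCC boxes, and 9.35% of all windows held 3 or more. The later S100a16 window, not shown, held 2 CACCC boxes and 1 GGGCGG box. The S100a1 window held 4 CACCC boxes, and 3.1% of all windows held 4 or more. S100a1 and S100a13 point away from each other, and their windows share 204 bases. Their differences, 0.29 and 0.11, had the same sign and neither passed. A match is a run of letters and not a shown binding site.

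The sexes were compared because each genotype held 1 male and 2 females. The difference between the male mutant and the male control was 0.95 for S100a1, against -0.039 between the means of the females. With 1 male per genotype, the spread in the test of the interaction of genotype and sex comes from the females alone, and the test takes each lone male to vary as they do. The only male control is control replicate 1, whose S100a1 signal of 6.89 was the lowest of the 6. For S100a4 the difference was 0.42 in males and -0.37 in females, and for S100a14 it was -0.84 in males and -0.24 in females. Under that assumption none of the 10 passed the interaction test in limma (adjusted p under 0.05), where 0.0451% of all genes passed, and 2 of the 10, S100a1 and S100a4, had an unadjusted p under 0.05, beside 5.82% of all genes. S100a10 and S100a11 each had the same sign in both sexes, -0.22 in males and -0.37 in females for S100a10, and 0.29 in males and 0.24 in females for S100a11.

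**Figure D3:**
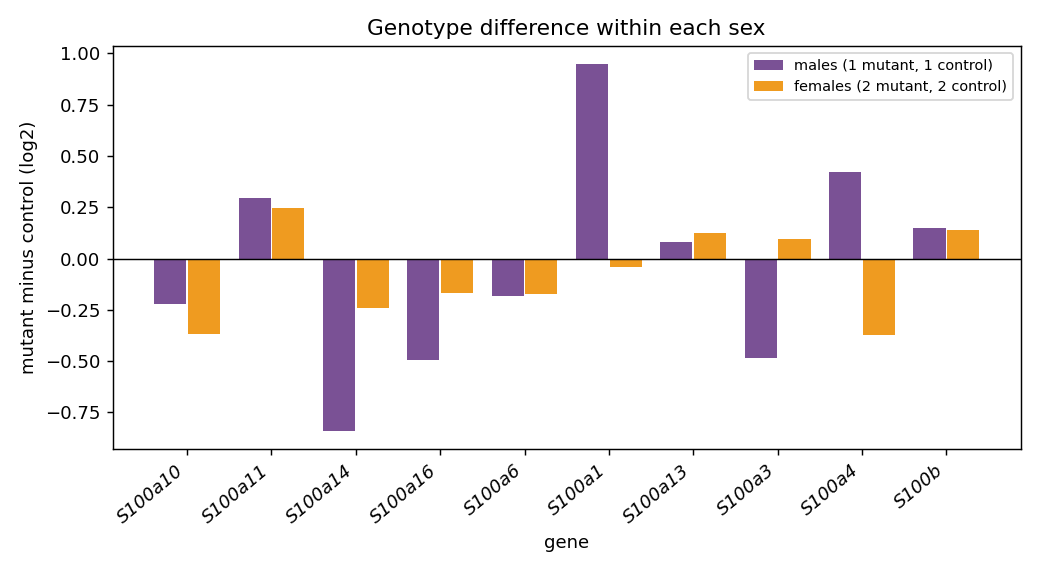
Difference between mutant and control (log2, vertical axis) in males, 1 array against 1, and in females, means of 2 arrays against 2, for each S100 gene. S100a1 is 0.95 in males and -0.039 in females, S100a3 and S100a4 also differ in sign between the sexes, and the other 7 genes have the same sign in both.

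Lists of genes around the family were read beside the 1.04% of all genes that passed. None of the 28 measured genes on the list of S100 partners and receptors passed, with a median difference of -0.027. The smallest adjusted p-values there were those of Anxa1 and of Plat, encoding tissue plasminogen activator, a ligand of p11 on the cell surface, at 1.84 ± 0.41 (SE; limma adjusted p = 0.101). Ager, encoding the receptor RAGE, differed by -0.090 (adjusted p = 0.876). Among 7 other S100 genes none passed. Of 6 S100 fused-type genes, whose long proteins start with an S100 domain, the hornerin gene Hrnr fell by 2.07 (limma adjusted p = 0.0436) and 5 did not pass. On average, 2 of these 6 were higher and 4 lower in mutant, with a median difference of -0.13. The trichohyalin gene Tchh was higher on every mutant array, with a difference of 1.32 (adjusted p = 0.200). Of 27 other EF-hand genes, Rcn3, encoding a calcium-binding protein of the secretory pathway, fell by 0.64 (adjusted p = 0.0351), and 26 did not pass, with a median difference of -0.11. Calm4, a calmodulin-like gene of squamous epithelium, read 9.83, 11.05 and 10.56 on the mutant arrays, against 11.87, 11.41 and 12.06 on the control arrays (limma adjusted p = 0.117). Nucb2, on the same list, was higher on every mutant array, at 10.45, 10.18 and 10.11, against 9.74, 9.63 and 9.49 on the control arrays (adjusted p = 0.0785). On average, 11 of the 27 genes were higher and 16 lower in mutant.

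The genes whose signals ran most nearly with each of S100a10, S100a11 and S100a16 over the 6 arrays were found among all genes above the dim limit. The 6 arrays share the grouping into genotypes, so these Pearson correlations describe the arrays and carry no test. For S100a10 they were Tgfbr3 (r = 0.994), Sema4d (r = 0.989) and Tnni1 (r = 0.987). For S100a11 they were Mrpl47 (r = 0.993), Golga5 (r = 0.991) and Hilpda (r = 0.991), of which Hilpda, encoding a lipid droplet protein, rose by 1.72 on the log2 scale (limma adjusted p = 0.037). For S100a16 they were Csnk1e (r = 0.994), Tshz2 (r = 0.993) and Mapk11 (r = 0.993). Apart from Hilpda none of these 9 genes passed.

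**Figure D4:**
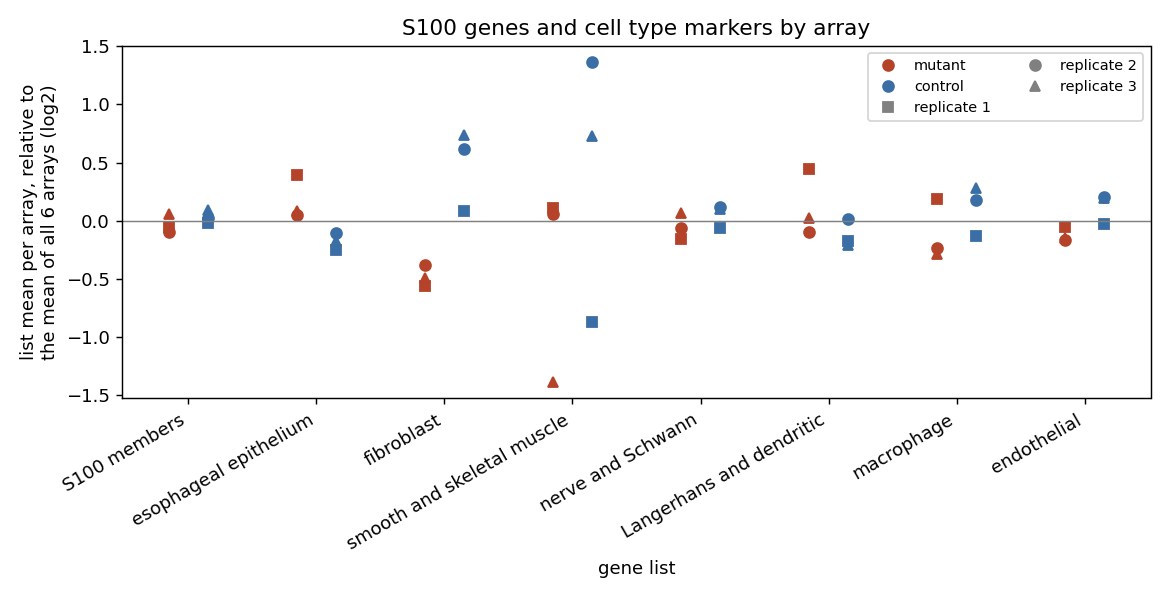
Mean signal of each gene list per array, relative to its mean over the 6 arrays (log2, vertical axis), for the S100 genes, the epithelial markers and markers of other cell types, with mutant arrays in red left of control arrays in blue. The fibroblast list is lower on every mutant array than on any control array. The endothelial list is too, but narrowly, at 5.42 or less in mutant and 5.44 or more in control. It includes Flt1, which fell by 1.90, and 4 of its 10 markers were higher on average in mutant. The epithelial list, which includes Krt6a, is higher on every mutant array than on any control array. Its mean difference is 0.35 with Krt6a and 0.085 without it, so most of that height comes from this gene. The means of the S100 genes (8.16 to 8.32 in mutant and 8.23 to 8.35 in control) overlap, but average over 4 genes that were higher and 6 that were lower in mutant.

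Of the 12 epithelial markers, 6 were higher and 6 lower on average in mutant, with a median difference of -0.0082, and none passed. The list averaged 11.12, 10.79 and 10.82 on the mutant arrays, against 10.48, 10.63 and 10.56 on the control arrays. The mean difference of the list was 0.35, and 0.085 without Krt6a. Krt6a, a keratin of stressed epithelium, was at 3.30 ± 0.76 (SE; limma adjusted p = 0.114). The progenitor cell factor gene Sox2 differed by 0.51 (adjusted p = 0.231). Among 10 endothelial markers, 4 were higher and 6 lower on average in mutant, with a median difference of -0.074, and Flt1 fell by 1.90 (limma adjusted p = 0.00982) while 9 did not pass. The 10 macrophage markers had a median difference of -0.24, with 3 higher and 7 lower on average in mutant. Of these, Cd68 rose by 1.11 (limma adjusted p = 0.0304), Lyz2 fell by 1.57 (adjusted p = 0.0464), and 8 did not pass. The part of these cells in the values of the S100 genes was not tested.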

How the data were processed

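RNA of esophageal epithelium from 6 mice was hybridised to 1 array each, and the authors deposited 1 log2 value per probe set and array; Partek 6.4 is the one tool named, per the submitters' processing notes. How the authors corrected, normalized and summarized the signals is not stated, and this can compress small differences. A single gene was named by 21789 of the 28853 probe sets, several genes by 1621 and none here by 5443; symbols were updated through Entrez identifiers (21698 matched and 91 did not). Genotype was the only term for the 19938 genes in limma 3.58.1 (R 4.3.3; lmFit, eBayes, two-sided; 4 residual and 7.58 total degrees of freedom). P-values were adjusted by Benjamini-Hochberg over every gene, with 0.05 as the threshold, and SE are the moderated ones. With 3 arrays a group an exact permutation test reaches 0.1 at best, so none was run. The steps were tested on simulated data. Figures used Python 3.11.15 and matplotlib 3.10.9.

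The members and lists were chosen with earlier results of these data known. The genes named are the 10 members, Klf4, S100a8, S100a9, 4 keratins, the passing genes (up to 4) or the 2 smallest p-values of each list, and the 3 genes most like each of the 3 members with the smallest p. Others were named after their values were seen. Anxa2, Ahnak, Cacybp, Sugt1, Il1a, Fgf1, Padi3, Ager, S100a2 and S100a5 were named for their relation to a member or place beside it. Calm4, Nucb2, Tchh, Ckm and the dim neutrophil genes were named to describe their lists. Lists whose genes the text does not describe gave these results. Thy1 was the 1 of 8 T cell genes that passed, lower. None of 8 melanocyte genes passed, where Tyr (0.17) and Tyrp1 (0.090) had the smallest p, and none of 7 adipocyte genes, where Fabp4 (2.40) and Pparg (0.36) had. Alternatives are given in the closing section. The number of arrays limits the precision, and read depth does not apply. No protein sequences were used here.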

Additional observations from a re-analysis of the deposited data

How the results depend on the processing

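None of the 10 S100 genes passed in limma under any of the 15 alternatives tried. These were quantile normalization, median centring, leaving out dim genes, the mean of a gene's probe sets, sex as a covariate, the replicate block, array weights, an intensity trend, leaving out each array, and, added after seeing the data, the females alone. The smallest adjusted p of any of them was 0.11, for S100a10 with array weights. S100b and S100a4 have no value without dim genes. Of the 10 genes, 7 kept their sign throughout. S100a1 turned to -0.039 in the females alone. S100a3 turned to 0.010 without control replicate 1 and to 0.096 in the females alone, and lay between -0.28 and 0.010 with single arrays left out. S100a4 turned to 0.0091 without control replicate 2 and to 0.026 without mutant replicate 2, and lay between -0.28 and 0.026 with single arrays left out. The cause was not tested. The count of all genes past the threshold was 207, and between 44 and 193 when single arrays were left out (44 without control replicate 3, 93 without mutant replicate 1 or 2, 102 without mutant replicate 3, 106 without control replicate 2), 83 in the females alone and 370 with array weights. With the replicate block it was 81 genes and 0 of the 10. Deviations from the group mean correlated at -0.17, 0.09 and -0.10 between arrays with the same number. With 3 arrays a group, these correlations cannot settle whether equal numbers mark littermates. Replicate 1 is the only male of each genotype, so the male arrays would pair if every control had its littermate among the mutant arrays. Whether it had is not known here, nor is any pairing of the females. The interaction of genotype and sex called 0 of the 10 under each normalization and probe set choice, with all spread from the females. Scaling moved the median over all genes little: it was 0.022 in the deposited values, 0.017 with quantile normalization and 0.044 with median centring. The 2 dim genes lie where signal over background limits any difference.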
